A study of Mus musculus with 7 samples.

Results

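Genes of the lysosome and of its proton pump were measured in RNA from brains of mice aged 24 months, all labelled with the construct pair V1SSV2 and as DT Venus. Members were taken by symbol, as subunits of the vacuolar proton pump (V-ATPase) and as enzymes, membrane proteins and regulators of lysosomes. All 45 symbols were found among the 48526 genes of the deposited table, 16 of them V-ATPase genes and 29 other lysosomal genes. There were 7 libraries, of which 4 were labelled on, with glucose, and 3 were labelled off, with Dox, read here as doxycycline. The off libraries carry the same construct label as the on libraries, and the series concerns oligomers of α-synuclein detected by complementation of the fluorescent protein Venus. Levels are given as rlog, the regularized logarithm in log2 units, a transformation that pulls the deviations of low genes toward 0 and so understates their differences. The labels give neither the promoter driving the constructs, nor the brain region, nor whether a library is 1 animal. The p-values therefore measure the spread between these libraries, and constructs and doxycycline cannot be told apart. Fewer cells of a type and less RNA per cell cannot be told apart in bulk tissue either.

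Lysosomes digest proteins, glycans and lipids with hydrolases that work in acid. The V-ATPase acidifies them: its cytosolic V1 sector splits ATP, and its membrane V0 sector passes protons into the lumen. In neurons the same pump also acidifies synaptic vesicles, where the proton gradient drives the loading of transmitters. Many lysosomal genes are targets of the transcription factor TFEB, which binds an E-box with the core letters CACGTG, known as the CLEAR element in its extended form.

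Before any comparison, on replicate 1 stood apart from the other on libraries. On the first principal component of all tested genes, which held 47.7% of the variance, its score was -4.10, while on replicates 2 to 4 scored 7.19 to 9.15 and the off libraries scored -8.64 to -3.56. Across genes, which are not independent replicates, deviations of a library also ran with transcript length, with Spearman's rho of 0.256 to 0.271 for on replicates 2 to 4, -0.038 for on replicate 1 and -0.310 to -0.221 for the off libraries. With GC content, rho was 0.170, -0.459, -0.140 and -0.301 in on replicates 1 to 4. In off replicates 1 to 3 it was -0.111, 0.241 and 0.587. Each main result is therefore also given without on replicate 1, and after a correction that took out, library by library, a smooth trend over transcript length and GC content. On replicate 1 was singled out from these same values and scored within the range of the off libraries. Its removal can widen the differences of genes that follow the first principal component, in either direction. The adjusted p-values without it are therefore not those of a planned comparison. Neuron markers such as Snap25 (mean rlog 16.4) and the myelin gene Mbp (17.1) were abundant, while the liver gene Alb (-0.17) and the muscle gene Ckm (0.72) were close to 0. The other genes listed for liver and muscle were not close to 0. Apoa1 of the liver list had a mean rlog of 3.29, and Myh4 and Acta1 of the muscle list had 3.71 and 7.04. Ttr, listed for both liver and choroid plexus, was at 14.7.

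All 45 members had a mean rlog of 3 or more and were tested. Per kilobase of transcript, as rlog minus log2 of the length, the most abundant was Psap (14.2), the precursor of the saposins that help hydrolases degrade sphingolipids. It was followed by Atp6v1b2 (13.2), the nucleotide-binding B subunit of V1, Atp6v1e1 (13.05), a stalk subunit, and Atp6v1g2 (13.0), the stalk subunit G2 typical of neurons. The lysosomal membrane glycoprotein gene Lamp1 lay at 12.7. At the low end lay Naglu (6.94), an enzyme of heparan sulfate breakdown, Tfeb (7.21), Cln3 (7.34), a lysosomal membrane protein gene mutated in juvenile Batten disease, and Gla (7.60), the α-galactosidase missing in Fabry disease. Among the 16 V-ATPase genes the level per kilobase was at least 11.01, the value of Atp6v1d and Atp6v1g1. The paralogs of subunit G differed in level in each library: Atp6v1g2 exceeded Atp6v1g1 per kilobase by 1.99, 1.98, 2.03 and 1.96 in on replicates 1 to 4, and by 1.94, 2.004 and 2.04 in off replicates 1 to 3. The excess of G2 over G1 overlapped between the groups.

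**Figure D1:**
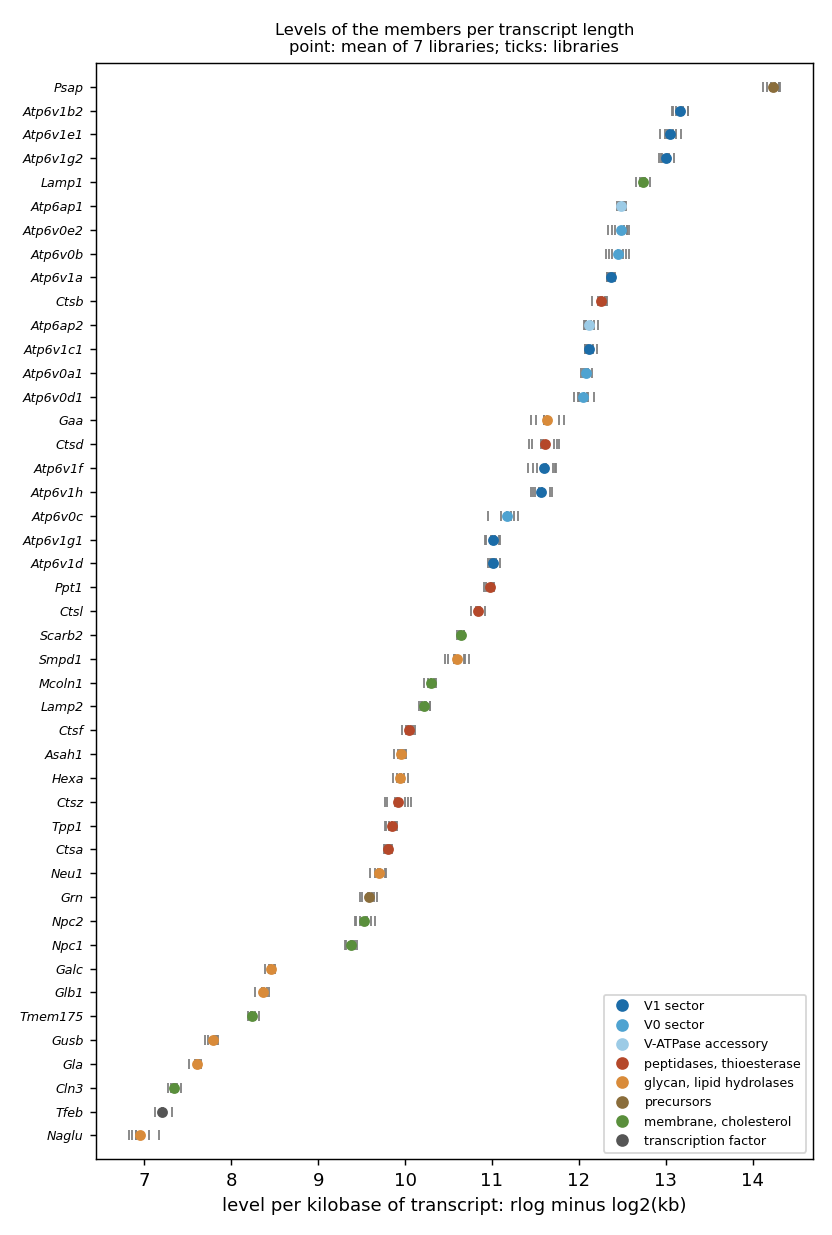
Level of each member per kilobase of transcript (rlog minus log2 of the length in kilobases, horizontal axis), with the mean of the 7 libraries as a point and single libraries as ticks. Psap lies highest at 14.2 and Naglu lowest at 6.94, and the V-ATPase genes lie at 11.01 or above.

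Promoter sequence was read for letters already linked to lysosomal genes, so an excess among members chosen as such is not an independent result. RefSeq windows on GRCm38.p6, each from 250 bases before to 50 after a transcription start, were available for 38 of the 45 genes. The letters CACGTG, which read the same on both strands, occurred in a window of 14 of these 38 genes (36.8%), against 1402 of 12805 tested genes with a window (10.9%). The longer TCACGTGA occurred in 7 of 38 members (18.4%) against 1.91% of the tested genes, and the 10-letter CLEAR palindrome in 1 of 38 (2.63%) against 0.648%. Each longer motif contains the shorter ones, and all 3 read the same on both strands. By set, CACGTG was in 3 of the 12 V-ATPase genes with a window and in 11 of the 26 others. The 14 members with CACGTG had a median difference, on minus off, of -0.03, and the 24 without it -0.06. The 250 bases before the start are shown for the members called in the comparison, Atp6v0b on the minus strand at chr4:117887330-117887579 and Atp6v1f on the plus strand at chr6:29467533-29467782. They are also shown for Ctsd, the aspartic protease cathepsin D (minus strand, chr7:142387828-142388077), for the lysosomal calcium channel gene Mcoln1 (plus strand, chr8:3500269-3500518) and for Cln3, chosen as the member that holds the 10-letter motif (minus strand, chr7:126583237-126583486). Capitals mark CACGTG.
Atp6v0b: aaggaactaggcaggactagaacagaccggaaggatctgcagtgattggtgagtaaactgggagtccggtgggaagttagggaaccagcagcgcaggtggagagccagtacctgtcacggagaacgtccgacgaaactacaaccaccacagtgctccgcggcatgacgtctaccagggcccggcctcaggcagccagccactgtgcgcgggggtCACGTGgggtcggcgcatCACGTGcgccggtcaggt
Atp6v1f: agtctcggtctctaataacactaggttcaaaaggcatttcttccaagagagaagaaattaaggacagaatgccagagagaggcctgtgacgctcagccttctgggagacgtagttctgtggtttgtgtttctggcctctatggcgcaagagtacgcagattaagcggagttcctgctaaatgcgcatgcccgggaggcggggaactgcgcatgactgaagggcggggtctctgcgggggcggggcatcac
Ctsd: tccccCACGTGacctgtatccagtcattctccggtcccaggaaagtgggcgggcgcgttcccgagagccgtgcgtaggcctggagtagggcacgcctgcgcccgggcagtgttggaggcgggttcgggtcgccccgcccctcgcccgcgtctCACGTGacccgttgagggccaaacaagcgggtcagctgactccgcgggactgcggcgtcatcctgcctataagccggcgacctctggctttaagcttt
Mcoln1: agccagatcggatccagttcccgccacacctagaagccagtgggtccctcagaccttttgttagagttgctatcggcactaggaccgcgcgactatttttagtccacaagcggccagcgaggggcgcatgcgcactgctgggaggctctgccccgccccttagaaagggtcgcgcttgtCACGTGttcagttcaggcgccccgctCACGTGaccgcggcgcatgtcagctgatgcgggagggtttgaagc
Cln3: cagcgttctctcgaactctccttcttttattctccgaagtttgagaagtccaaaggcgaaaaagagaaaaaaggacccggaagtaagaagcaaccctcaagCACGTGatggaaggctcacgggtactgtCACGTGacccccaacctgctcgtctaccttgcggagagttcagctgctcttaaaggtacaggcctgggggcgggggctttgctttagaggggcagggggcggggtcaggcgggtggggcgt
Counted from the transcription start, the CACGTG of Atp6v0b began at positions -36 and -18, those of Mcoln1 at -71 and -45, those of Ctsd at -245 and -98, and those of Cln3 at -149 and -121. Cln3 has 2 windows, and the letters lie in the one further inside the gene. The window of Atp6v1f had none. Lamp1 held the most among the members, with 4 between positions -61 and -15. A match is a description of letters, not of binding.

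The comparison of on with off brains asks which lysosomal genes differ between these groups, in which constructs and doxycycline cannot be told apart. Of the 45 members, 2 passed the limma threshold of 0.05 (adjusted over all 17896 genes tested), both lower in on and both V-ATPase subunits, 0 passed higher, and 43 did not pass. Over all tested genes 2.60% were called, 1.79% lower and 0.816% higher. Without on replicate 1, 12 members were called lower, 8 of the pump and Ctsd, Smpd1, Gaa and Npc2, and 0 higher, where 8.02% of all genes were called lower and 8.28% higher. At an unadjusted p under 0.05, 10 members were lower and 0 higher, against 10.6% and 10.0% of all tested genes. The sign was negative in 37 of 45 members, against 48.5% of all tested genes, and the median difference was -0.06 over the members and 0.003 over all genes. Differences were small: they ran from -0.21 to 0.08, with standard errors of 0.04 to 0.07. On and off libraries did not overlap for 5 members lower in on, against 8.09% of all tested genes, and for 1 member higher in on, against 7.13%. With on replicates 2 to 4 alone, 18 members lay below every off library and 3 above, against 16.7% and 17.6% of all tested genes.

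**Figure D2:**
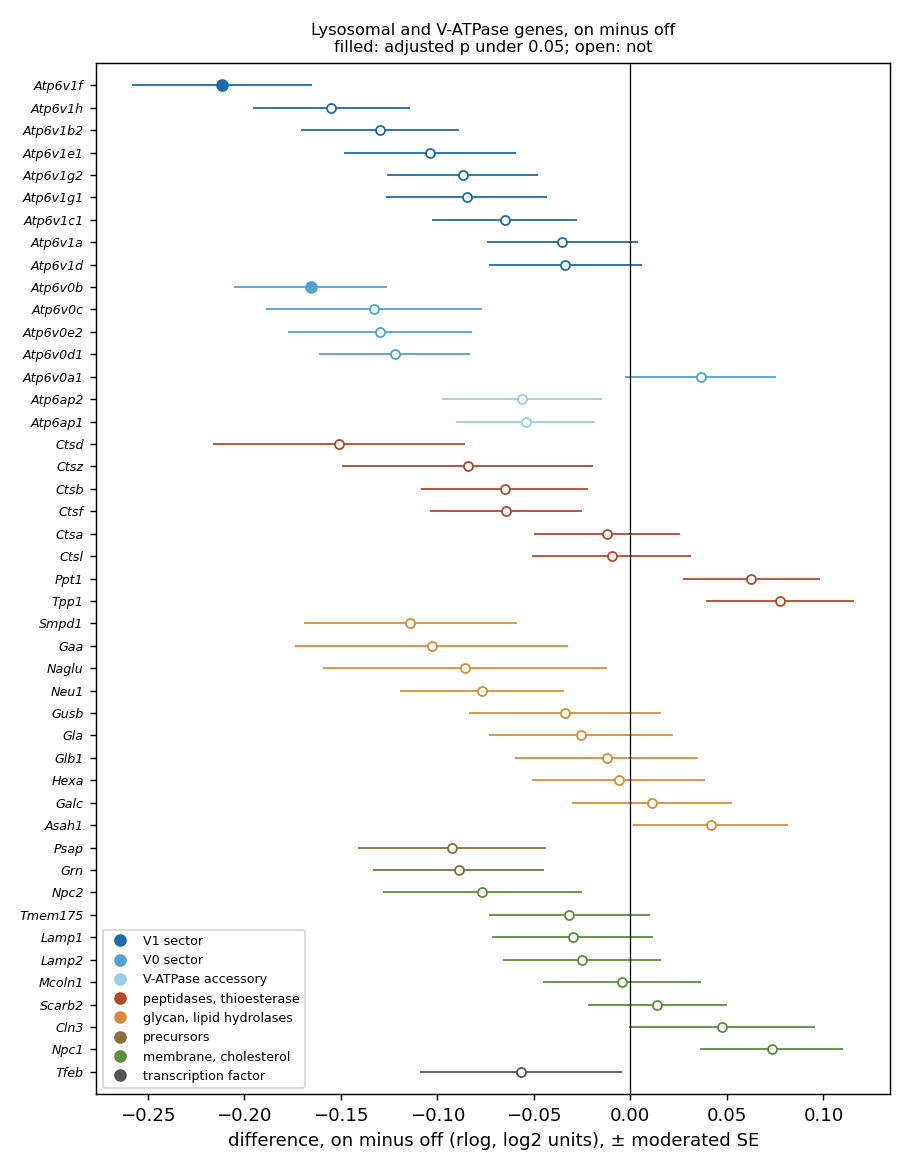
Difference of each member, on minus off, in log2 units of the rlog value, with the moderated standard error from limma, grouped by role. Filled points passed an adjusted p of 0.05: Atp6v1f at -0.21 and Atp6v0b at -0.17. The other 43 points are open.

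The 2 calls lay in both sectors of the pump. Atp6v1f, which encodes subunit F of the central shaft of V1 (chromosome 6, 29467718 to 29470512, plus strand, GRCm38), had 11.11, 10.96, 11.01 and 10.91 in on replicates 1 to 4, against 11.21, 11.23 and 11.19 in off replicates 1 to 3. The groups did not overlap, and on replicate 1 lay nearest to the off libraries. The SD was 0.09 in on (n = 4) and 0.02 in off (n = 3), and the difference was -0.21 ± 0.05 (SE, limma adjusted p = 0.0328), or 13.6% less on the shrunken scale. Atp6v0b, a proteolipid subunit of the V0 rotor ring (chromosome 4, 117884326 to 117887333, minus strand), had 12.45, 12.32, 12.38 and 12.35 in on replicates 1 to 4, against 12.51, 12.57 and 12.54 in off replicates 1 to 3. These groups did not overlap either. Its mean was 12.38 ± 0.06 in on (SD, n = 4) and 12.54 ± 0.03 in off (SD, n = 3), a difference of -0.17 ± 0.04 (SE, limma adjusted p = 0.0444). Neither call held when any 1 library other than on replicate 1 was left out: the adjusted p was then 0.0695 to 0.167 for Atp6v1f and 0.0649 to 0.209 for Atp6v0b. After the GC and length correction the difference was -0.09 ± 0.03 (SE, adjusted p = 0.183) for Atp6v1f and -0.06 ± 0.02 (SE, adjusted p = 0.270) for Atp6v0b. Their transcripts are short, at 703 and 1000 bases, against a median of 2801 bases over all tested genes. Their GC content was 55.3% and 55.9%, against a median of 50.05%. Exons of Atp6v0b share 243 bases (11.8% of its exon bases) with a gene on the opposite strand, Gm12841, whose mean rlog was 3.96. In all, 18 of the 45 members share exon bases with another annotated gene, 14 of them with a tested gene on the opposite strand, and reads there may have gone to either gene.

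In the V1 sector all 9 genes had negative differences, 1 of which passed, with a median of -0.09. Atp6v1h, a regulatory subunit that caps V1 on the membrane, had 12.58, 12.48, 12.51 and 12.53 in on replicates 1 to 4, against 12.70, 12.73 and 12.61 in off replicates 1 to 3. Its groups did not overlap, and it missed the threshold at -0.15 ± 0.04 (SE, limma adjusted p = 0.0573). Atp6v1b2 had 14.67, 14.61, 14.58 and 14.57 in on, against 14.76, 14.76 and 14.69 in off, again without overlap, at -0.13 ± 0.04 (SE, adjusted p = 0.1001). Both kept most of their difference after the GC and length correction, at -0.13 ± 0.03 (SE, adjusted p = 0.0757) for Atp6v1h and -0.12 ± 0.03 (SE, adjusted p = 0.0973) for Atp6v1b2. The stalk genes Atp6v1e1 (-0.10), Atp6v1g1 (-0.08) and Atp6v1g2 (-0.09) and the subunit C gene Atp6v1c1 (-0.07) did not pass. The smallest values belonged to Atp6v1a, the catalytic subunit (-0.04), and Atp6v1d of the central shaft (-0.03). Corrected for GC and length, Atp6v1e1 was nearer 0 at -0.05, Atp6v1g1 and Atp6v1g2 at -0.02, and Atp6v1c1 at -0.04. Atp6v1a and Atp6v1d were then further from 0, at -0.07 and -0.05.

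In the V0 sector 4 of 5 genes had negative differences, 1 of which passed, with a median of -0.13. Atp6v0d1, which links the ring to the V1 shaft, had 12.77, 12.65, 12.71 and 12.70 in on replicates 1 to 4, against 12.81, 12.87 and 12.80 in off replicates 1 to 3. It did not overlap and did not pass (-0.12 ± 0.04, SE, limma adjusted p = 0.104). Atp6v0e2, a small subunit enriched in brain, was at -0.13 ± 0.05 (SE, adjusted p = 0.147), and its on replicate 1 (13.39) lay above off replicate 1 (13.36). The other ring proteolipid, Atp6v0c, was at -0.13 ± 0.06 (SE, adjusted p = 0.197). Its value is uncertain, since 2 processed copies, Atp6v0c-ps1 and Atp6v0c-ps2, are annotated, with mean rlog of -1.01 and 3.72. Processed copies of the other members were not searched for. Atp6v0a1, the proton channel subunit a1 found in neurons, was the exception in sign, at 0.04 ± 0.04 (SE, adjusted p = 0.637). Corrected for GC and length, Atp6v0d1 was at -0.05, Atp6v0e2 at -0.07, Atp6v0c at -0.03 and Atp6v0a1 at 0.04. The accessory gene Atp6ap1, whose product acts in assembly of the pump, had 13.65, 13.59, 13.61 and 13.57 in on replicates 1 to 4, against 13.67, 13.66 and 13.64 in off replicates 1 to 3. The groups overlapped through on replicate 1, at -0.05 ± 0.04 (SE, limma adjusted p = 0.421). The other accessory gene, Atp6ap2, was at -0.06 ± 0.04 (SE, adjusted p = 0.473).

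Over the 16 V-ATPase genes the median difference was -0.10 as deposited and -0.05 once corrected for GC and length, with 15 negative before and after it and 0 of 16 past the limma threshold (5 at an unadjusted p under 0.05, all lower). After the correction 0.578% of all genes were called, 0.365% lower and 0.213% higher, and 52.0% were negative. The unadjusted p was under 0.05 in 6 corrected members lower in on and 1 higher, against 8.82% and 8.28% of all genes, and 5 lower and 1 higher did not overlap, against 8.13% and 5.88%. With the correction and without on replicate 1, 6 members were called lower (Atp6v1a, Atp6v1b2, Atp6v1h, Atp6v0e2, Ctsb and Npc2) and 0 higher, against 4.87% and 5.97% of all genes. On replicate 1 was the highest on library in 14 of the 16 genes and lay above the lowest off library in 11. In 12 of the 16 genes off replicate 2 was the highest library, and in 8 on replicate 2 was the lowest. Without on replicate 1, 8 V-ATPase genes were called lower and 0 higher, against 8.02% and 8.28% of all genes. Without off replicate 2, 0 members were called, where 0.207% of all genes were called lower and 0.0335% higher. Neuron markers, 9 in the list with none near 0, had mean deviations of 0.01, -0.06, -0.03 and -0.03 in on replicates 1 to 4, and of 0.00, 0.09 and 0.00 in off replicates 1 to 3. Their summed linear level was 290900 to 300400 in on and 290900 to 316200 in off, and 0 of 9 passed. As deposited, 7 of the 9 neuron markers had negative differences and 2 positive, where 48.5% of all tested genes were negative. The median difference of these markers was -0.08 as deposited and -0.04 after the correction. Without on replicate 1, 1 of the 9 was called lower, Tubb3 (limma adjusted p = 0.00837), and with the correction as well 1, Gad1 (adjusted p = 0.0355). Of all genes, 8.02% and 4.87% were called lower in these fits. Markers of endothelium, 5 in the list, had 4 positive differences and 1 negative, that of Cldn5 (-0.16 ± 0.07, SE, limma adjusted p = 0.227), with mean deviations of -0.25, 0.12, 0.16 and 0.15 in on replicates 1 to 4, and of -0.02, -0.22 and 0.04 in off replicates 1 to 3. Their summed linear level was 5322 to 7241 in on and 5436 to 6521 in off, none was near 0, and 0 of 5 passed. Without on replicate 1, 4 of the 5 were called higher, Kdr (limma adjusted p = 0.00115), Flt1 (0.00233), Slco1a4 (0.0148) and Pecam1 (0.0380), and with the correction as well 2 were, Kdr (0.00544) and Flt1 (0.0208). Of all genes, 8.28% and 5.97% were called higher in these fits. The part of neuron or endothelial content in the V-ATPase values was not tested.

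**Figure D3:**
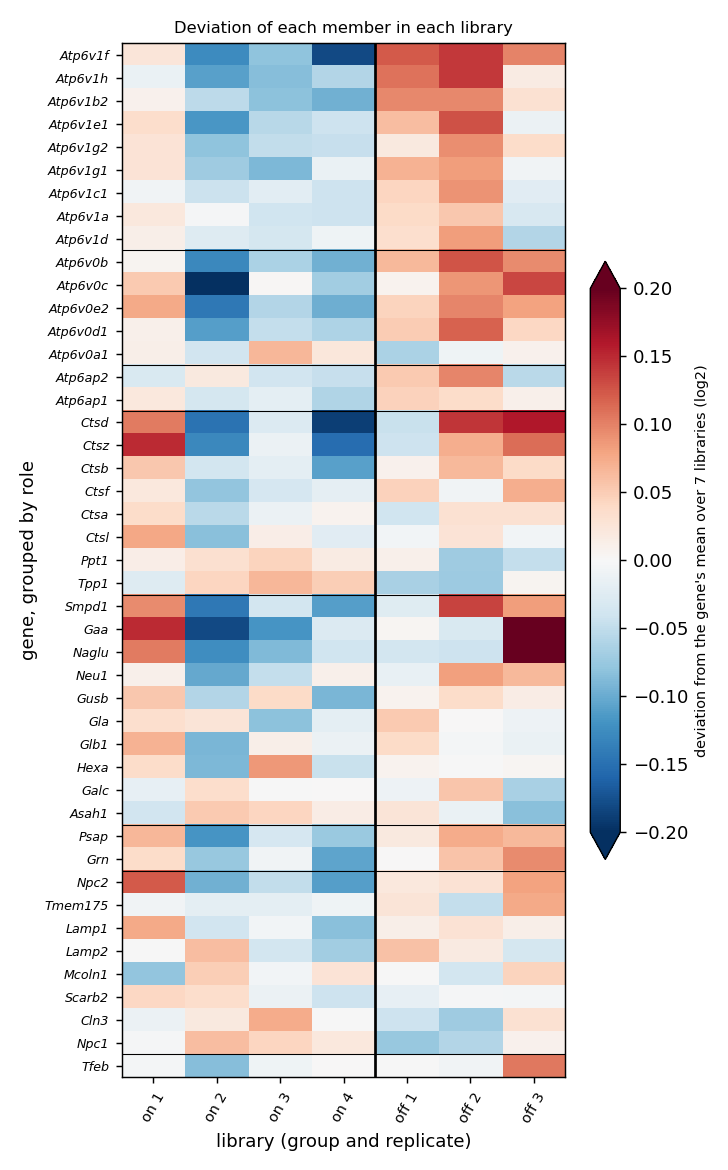
Deviation of each member (down the page, grouped by role) from its mean over the 7 libraries (columns, on left of off), in log2 units. Over the V-ATPase genes, on replicates 1 to 4 have mean deviations of 0.02, -0.08, -0.04 and -0.06. Off replicate 2 is high across most V-ATPase genes. Colours end at 0.2 in either direction.

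Of the 8 peptidase and thioesterase genes 6 had negative and 2 positive differences, and 0 passed. Cathepsin D, Ctsd, which is made as a proenzyme and cleaves α-synuclein among other substrates, had 12.80, 12.55, 12.67 and 12.51 in on replicates 1 to 4, against 12.65, 12.84 and 12.86 in off replicates 1 to 3. The groups overlapped, since on replicates 1 and 3 lay above off replicate 1. The difference was -0.15 ± 0.07 (SE, limma adjusted p = 0.210), and without on replicate 1 it was -0.21 ± 0.05 (SE, adjusted p = 0.0148). Ctsd shares 808 bases (34.4% of its exon bases) with an annotated gene on the same strand, Gm49369, which is listed at 0 in every library, so reads there may not have been counted. The cysteine protease gene Ctsb had 14.56, 14.47, 14.49 and 14.40 in on replicates 1 to 4, against 14.52, 14.57 and 14.55 in off replicates 1 to 3. They overlapped, at -0.07 ± 0.04 (SE, adjusted p = 0.421).

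Tpp1 and Ppt1 had positive differences and did not pass. Tpp1, a tripeptidyl peptidase, was at 0.08 ± 0.04 (SE, limma adjusted p = 0.267). Ppt1, a thioesterase that removes palmitate from proteins, was at 0.06 ± 0.04 (SE, adjusted p = 0.339). Ppt1 was the member whose on libraries all lay above the off libraries, by a narrow margin: its lowest on value was 12.241 and its highest off value 12.239. Loss of either enzyme causes a neuronal ceroid lipofuscinosis in humans. The cathepsin genes Ctsz (-0.08), Ctsf (-0.06), Ctsl (-0.01) and Ctsa (-0.01) did not pass, and all 4 were above 0 after the GC and length correction.

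None of the 10 glycan and lipid hydrolase genes passed limma's threshold, and none did at an unadjusted p under 0.05. The smallest p was that of Smpd1, the acid sphingomyelinase. It had 11.96, 11.73, 11.83 and 11.76 in on replicates 1 to 4, against 11.84, 12.004 and 11.95 in off replicates 1 to 3, overlapping through on replicate 1, at -0.11 ± 0.06 (SE, limma adjusted p = 0.256). Gaa, the acid α-glucosidase of glycogen breakdown, was at -0.10 ± 0.07 (SE, adjusted p = 0.437), and Naglu had the widest standard error of all members (-0.09 ± 0.07, SE). In both, on replicate 1 and off replicate 3 were the highest libraries of their groups, at 13.64 and 13.69 in Gaa and at 8.41 and 8.53 in Naglu. The sialidase gene Neu1 (-0.08), the glucuronidase gene Gusb (-0.03) and Gla (-0.03) were also below 0. Hexa (-0.01), which degrades the ganglioside GM2, and Glb1 (-0.01), a β-galactosidase, were below 0 as deposited and above 0 after the correction. Galc (0.01), which degrades galactosylceramide of myelin, was above 0 as deposited and below 0 after it. The acid ceramidase gene Asah1 was at 0.04 in both.

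The precursors Grn and Psap, whose products meet in the lysosome, did not pass. Grn, which encodes progranulin, had 10.85, 10.73, 10.80 and 10.70 in on replicates 1 to 4, against 10.81, 10.87 and 10.90 in off replicates 1 to 3. Only on replicate 1 reached into the range of the off libraries, and the difference was -0.09 ± 0.04 (SE, limma adjusted p = 0.270). Psap had 15.72, 15.53, 15.62 and 15.58 in on replicates 1 to 4, against 15.67, 15.72 and 15.72 in off replicates 1 to 3. It too overlapped through on replicate 1, at -0.09 ± 0.05 (SE, adjusted p = 0.299). After the correction the values were -0.03 ± 0.03 (SE) for Grn and -0.05 ± 0.03 (SE) for Psap.

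**Figure D4:**
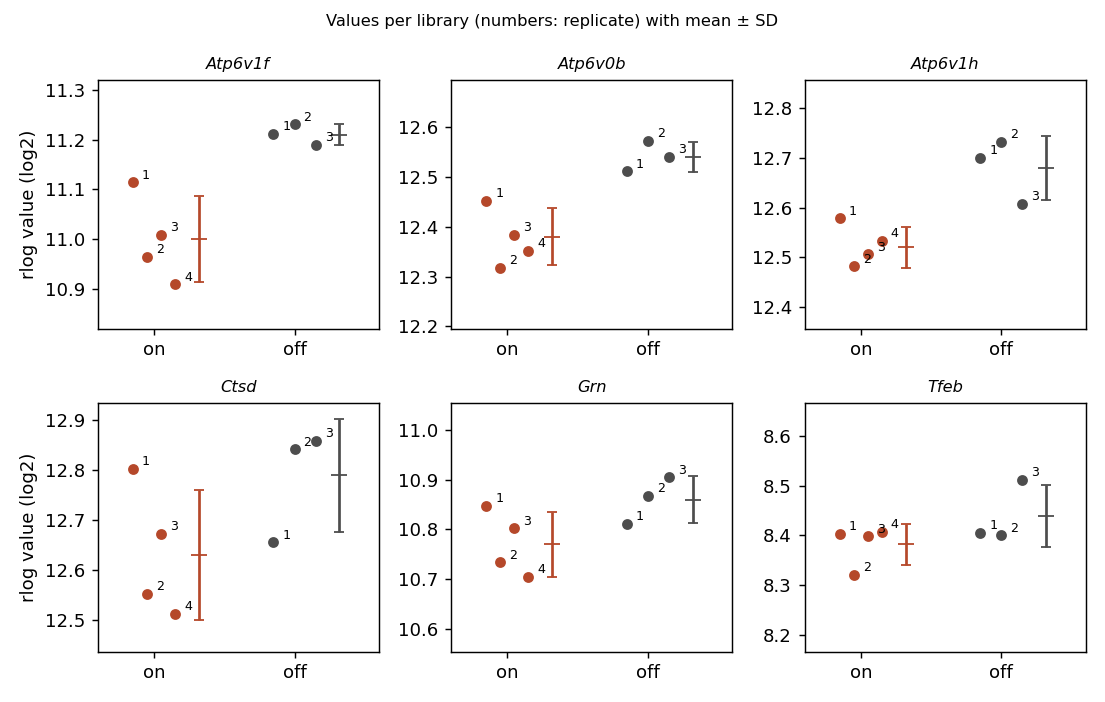
Values of 6 members in each library (rlog, log2 units; numbers are replicates), on left of off, with mean ± SD beside the points and an axis of equal span in each panel. On and off do not overlap in Atp6v1f, Atp6v0b and Atp6v1h and overlap in Ctsd, Grn and Tfeb, with on replicate 1 the highest on library in all but Tfeb.

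Of the 8 membrane, channel and cholesterol transport genes none passed limma's threshold, and none did at an unadjusted p under 0.05. Npc1, which exports cholesterol from the lysosome, had 11.76, 11.83, 11.81 and 11.78 in on replicates 1 to 4, against 11.69, 11.71 and 11.77 in off replicates 1 to 3, at 0.07 ± 0.04 (SE, limma adjusted p = 0.281). The groups overlapped, since on replicate 1 lay below off replicate 3. Its luminal partner Npc2 was at -0.08 ± 0.05 (SE, adjusted p = 0.429), with on replicate 1 (11.38) above every off library. Mcoln1 had 11.27, 11.40, 11.34 and 11.38 in on replicates 1 to 4, against 11.35, 11.31 and 11.39 in off replicates 1 to 3, with nearly equal means of 11.35 ± 0.06 in on (SD, n = 4) and 11.35 ± 0.04 in off (SD, n = 3). Tmem175, a lysosomal potassium and proton channel gene linked to Parkinson disease, had 10.22, 10.21, 10.21 and 10.22 in on replicates 1 to 4, against 10.25, 10.18 and 10.30 in off replicates 1 to 3. The off libraries enclosed the on libraries, at -0.03 ± 0.04 (SE, adjusted p = 0.709), and 35.3% of its exon bases lie opposite exons of Dgkq, whose mean rlog was 11.2. The glycoprotein genes Lamp1 (-0.03) and Lamp2 (-0.03) and the receptor gene Scarb2 (0.01), which carries β-glucocerebrosidase to lysosomes, were near 0, and Cln3 was at 0.05.

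Tfeb had 8.40, 8.32, 8.40 and 8.41 in on replicates 1 to 4, against 8.41, 8.40 and 8.51 in off replicates 1 to 3. The groups overlapped, and the difference was -0.06 ± 0.05 as deposited (SE, limma adjusted p = 0.578) and 0.02 ± 0.04 after the correction (SE, adjusted p = 0.832). TFEB is regulated largely by moving between cytosol and nucleus, which these values do not measure.

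Over the 29 members outside the pump the median difference was -0.03 as deposited and -0.01 after the correction, with 22 and 15 negative. Markers of microglia, cells rich in several of these enzymes, had mean deviations of 0.09, -0.08, -0.01 and -0.14 in on replicates 1 to 4, and of -0.04, 0.12 and 0.05 in off replicates 1 to 3. None of the 10 markers in that list was near 0, their summed linear level was 11280 to 13140 in on and 11920 to 13280 in off, and 0 of 10 passed. As deposited, 8 of the 10 had negative differences and 2 positive, where 48.5% of all tested genes were negative. Their median difference was -0.09 as deposited and -0.03 after the correction. Without on replicate 1, where Ctsd, Smpd1, Gaa and Npc2 were called lower, 3 of the 10 were called lower, C1qb (limma adjusted p = 0.0194), Tmem119 (0.0239) and C1qc (0.0336), and with the correction as well 0 were. Of all genes, 8.02% and 4.87% were called lower in these fits. Of the 6 oligodendrocyte markers 0 passed, and without on replicate 1 Mog (adjusted p = 0.0299) and Cnp (0.0490) were called lower, with 0 after the correction as well. The summed linear level of these 6 was 267000 to 316900 in on and 280900 to 310200 in off, with none near 0. As deposited, 5 of the 6 had negative differences and 1 positive, with a median of -0.06, and of -0.01 after the correction. On replicates 2 and 4 were the lowest on libraries in both the microglia list and the 29 genes, whose mean deviations there were -0.05 and -0.04. The part of microglial or oligodendrocyte content was not tested.

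**Figure D5:**
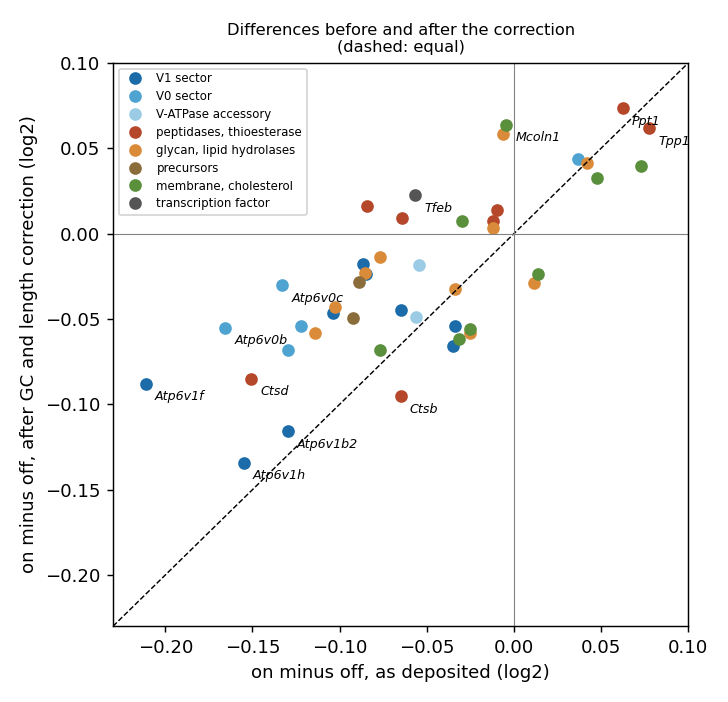
Difference of each member, on minus off, as deposited (horizontal axis) and after the correction for transcript length and GC content (vertical axis), in log2 units. Atp6v1f and Atp6v0b lie well above the dashed line of equality, while Atp6v1h and Atp6v1b2 lie close to it.

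Other genes of the pathway, 72 by function, were read for comparison. Of these, 68 passed the filter on low values, with a median of -0.02. Against 1.79% lower and 0.816% higher over all tested genes, 1 was called lower, 0 higher, and 67 did not pass. The call was Rraga, a Rag GTPase that recruits mTORC1 to the lysosome, with 11.79, 11.76, 11.70 and 11.69 in on replicates 1 to 4, against 11.94, 11.91 and 11.86 in off replicates 1 to 3. Its groups did not overlap, at -0.17 ± 0.04 (SE, limma adjusted p = 0.0397). It held only without on replicate 1 among the fits that left out 1 library, and was at -0.13 after the correction (adjusted p = 0.0745). Lamtor1 (-0.20, adjusted p = 0.0536), which anchors the Ragulator complex at the same membrane, and Igf2r (0.17, adjusted p = 0.0559), the larger mannose 6-phosphate receptor that delivers hydrolases, missed the threshold with groups that did not overlap. Among membrane proteins the smallest p-values were those of the amino acid sensor gene Slc38a9 (0.19, adjusted p = 0.0656), the tetraspanin gene Cd63 (-0.16, adjusted p = 0.0936) and Laptm4a (-0.12, adjusted p = 0.127). Corrected for GC and length, Slc38a9 was at 0.08 (limma adjusted p = 0.342) and Cd63 at -0.06 (adjusted p = 0.379), both with overlapping groups. Among enzymes, Manba (0.09, adjusted p = 0.342), a β-mannosidase, and Fuca1 (-0.09, adjusted p = 0.359), an α-fucosidase, did not pass. Of the 9 other V-ATPase subunit genes, 5 were tested and 3 were negative, led by Tcirg1 (-0.07), Atp6v0e (0.07) and Atp6v0a4 (-0.02), with adjusted p from 0.513 to 0.712 for these 3. Among these 9, Atp6v0d2, Atp6v1b1, Atp6v1e2 and Atp6v1g3, which serve in kidney, bone, testis or other tissues, had means below 3.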

How the data were processed

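Brain RNA of 7 libraries was read from the authors' table of log2-scale rlog values, 1 column per library. The deposited log2 values are named rlog, a transformation that scales counts by library and shrinks them toward each gene's mean. The authors' tools, per the submitters' processing notes, included STAR 2.5.2, BWA 0.7.14-r1136, cutadapt 1.9.1, Subread 1.5.3 and DESeq2 1.16.1, with the build GRCm38 and no roles stated. Per the labels' protocols, RNA came from a miRNeasy extraction (Qiagen) with DNase, and libraries from a stranded Illumina TruSeq mRNA kit. Neither the strand setting nor the annotation of the counting is named in what was available, so genes with overlapping exons are uncertain; depth is unknown, so no counting interval is given.

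Symbols were found for 48144 genes in GENCODE M21 (GRCm38). Length and GC content are those of 1 transcript per gene, by APPRIS class, support level and length. Genes with a mean of 3 or more (17896) entered a limma fit (limma 3.58.1, R 4.3.3) of group with an intensity trend, testing both directions, with Benjamini-Hochberg adjustment. The correction used mgcv 1.9.3 in 3 classes of mean value for 17831 genes. Members, lists, tests and the correction were chosen with earlier results of these data known. Full values are given for called members, the smallest p of each role, Tfeb, Tmem175, Mcoln1, Grn, Psap, Ctsd and Ctsb; of other lysosomal genes, for called ones and the 3 smallest p of each subgroup, of which 1 gene is not reported here; others were named after their values were seen. The fit was tested on simulated data. No 2 libraries were identical.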

Additional observations from a re-analysis of the deposited data

Results flagged for a closer look

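A gap test of the 4 on libraries was run for 45 members and 3 mean deviations, 48 values in all, where chance singles out about 1 in 20, or 2.4. It singled out 1. Tfeb was 8.321 in on replicate 2, below the other on libraries, which lay at 8.398 to 8.407. The off group of 3 is too small for this test.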

How the results depend on the processing

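The median difference of the members was negative under each alternative run, from -0.069 to -0.020, and 0 members were called higher in each. Genes called numbered 466 as reported, 7 with no filter on low values, 237 with no intensity trend, 2215 with array weights, 103 after the GC and length correction, 1182 at a threshold of 0.1, and 43 to 2917 with 1 library left out. Members called lower numbered 2 as reported, 0 with no filter, 0 with no intensity trend, 6 with array weights, 0 after the correction, and 0 to 12 with 1 library left out. With the correction, added after the data were seen, leaving out off replicates 1 to 3 gave 27, 15 and 19 genes, leaving out on replicates 1 to 4 gave 1934, 49, 24 and 25 genes, and members called lower numbered 0 to 6. Of the other lysosomal genes, 0 were called after the correction, and 0 to 7 lower and 0 to 2 higher with 1 library left out. The 7 and the 2 came without on replicate 1, where 8.02% of all genes were called lower and 8.28% higher. The cause was not tested. With the replicate number as a block, 30 genes and 0 members were called, and 2 genes and 0 members with the correction as well. The labels do not state that the numbers pair the libraries. Deviations of same-numbered libraries from their group means correlated at -0.229, -0.100 and 0.0176. These values cannot decide whether libraries are paired, since centring within so few libraries makes such correlations balance around 0.

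After the GC and length correction the sign turned in Ctsa (0.00748), Ctsf (0.00939), Ctsl (0.0137), Ctsz (0.0163), Hexa (0.0585), Glb1 (0.00335), Galc (-0.0292), Lamp1 (0.00714), Scarb2 (-0.0238), Mcoln1 (0.0638) and Tfeb (0.0224). With the correction and the replicate block it turned in Ctsf (0.00079), Ctsl (0.0184), Ctsz (0.048), Hexa (0.0663), Glb1 (0.00532), Galc (-0.0239), Lamp1 (0.0258), Scarb2 (-0.00694), Mcoln1 (0.0484) and Tfeb (0.0132). With median centring it turned in Hexa (0.00043) and Mcoln1 (0.00221). With array weights it turned in Hexa (0.00206) and Mcoln1 (0.00961). With the replicate block alone it turned in Hexa (0.00763). With 1 library left out the difference spanned 0 in Ctsa (-0.0352 to 0.00407), Ctsl (-0.0367 to 0.0168), Hexa (-0.036 to 0.0231), Glb1 (-0.037 to 0.0162), Galc (-0.0177 to 0.0419), Naglu (-0.133 to 0.00249) and Mcoln1 (-0.024 to 0.0215).

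Depth is unknown from these values, and 4 against 3 libraries, 1 of which stood apart, limit the precision.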
